A study of Rattus norvegicus with 9 samples.

Results

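The lysosomal cathepsins examined here were 9 rat genes, Ctsb, Ctsc, Ctsd, Ctse, Ctsh, Ctsk, Ctsl, Ctss and Ctsz, chosen by name and taken through every probe whose accession maps to them. Each was read by 1 probe with 1 spot. They are 9 of 11638 genes that could be tested with flagged spots kept, and 6 of them are among the 11049 genes tested with flagged spots removed, because spots of Ctsd, Ctse and Ctsl carried background flags on most arrays. Total RNA of whole bladder from female rats was measured 3 weeks after surgery on 9 single-colour (Cy3) Agilent arrays, in 3 groups of 3 arrays named by their titles. In the group titled pBOO + tolterodine, rats had partial bladder outlet obstruction and were given tolterodine, a blocker of muscarinic acetylcholine receptors. In the group titled pBOO the outlet was obstructed without the drug, by tying the proximal urethra around a catheter of 1 mm outer diameter. Rats titled sham were operated on without the ligature. The sources used here do not give the strain, the age or the dose of tolterodine.

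The protocol text gives obstruction and sham surgery a letter each, and the codes of the sham and pBOO arrays carry these letters the other way round. Groups follow the titles here. If the codes held instead, pBOO against sham would change sign and the comparisons with tolterodine would trade places. Between 72.1% and 80.1% of an array's spots were well above background, and 0 were saturated. The labels give 5 specimens per group, and whether an array holds a single rat or pooled RNA is not stated. The p-values therefore measure only the spread between these arrays. By scan time in the file headers, scan 1 held tolterodine arrays 1 and 2 with sham arrays 2 and 3, scan 2 held the 3 pBOO arrays with sham array 1, and scan 3 held tolterodine array 3 alone. Scan and drug therefore cannot be told apart directly between the tolterodine and pBOO arrays. Sham array 1 also stood apart, with a Pearson r across genes of 0.966 with sham 2, against 0.994 between sham 2 and sham 3. Its r was 0.976 with sham 3, and 0.973, 0.966 and 0.968 with tolterodine arrays 1, 2 and 3.

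Cathepsins are proteases that work mainly in the acid lumen of endosomes and lysosomes, where they break down proteins brought in by endocytosis or autophagy. Most are made as inactive precursors, sorted to the lysosome through mannose 6-phosphate tags and held in check outside it by cystatins and other inhibitors. Macrophages and other antigen-presenting cells are rich in several of them, and secreted cathepsins can cleave collagen and elastin, the fibres whose deposition stiffens an obstructed bladder wall.

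RefSeq promoter windows of the assembly GRCr8, which run from 250 bases before to 50 bases after a start, were available for 8 of the 9 genes. The start used lies inside the RefSeq gene edge by 189 bases for Ctsc, 80 for Ctss and 47 for Ctse, and at the edge for the others. Both strands were searched for motifs of factors that serve lysosomal and myeloid genes, and the stretches that carry them are shown for Ctsd and Ctss because their windows alone among the 8 held the first and the second motif. CACGTG, the core of the element bound by TFEB and MITF, was present in 6.42% of all 33469 windows. The Ctsd stretch, at chr1:206968822-206968991 on the minus strand and written 5′ to 3′ with CACGTG in capitals, holds it at 157 and at 10 bases before the start:
Ctsd: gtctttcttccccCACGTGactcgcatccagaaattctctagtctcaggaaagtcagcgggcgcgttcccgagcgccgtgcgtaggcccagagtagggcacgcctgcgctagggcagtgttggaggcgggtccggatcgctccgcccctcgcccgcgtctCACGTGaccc
GAAA repeated after a gap of 2 bases, a core of interferon-stimulated response elements, was present in 3.92% of all windows. The Ctss stretch, at chr2:185775360-185775386 on the plus strand, holds it 36 bases before the start its window uses. Since that start lies 80 bases inside the gene edge, the stretch lies within the annotated gene. The GAAA repeat is followed by the reverse strand of GAGGAA, both in capitals:
Ctss: GAAACCGAAAtgaaagttcacTTCCTC
GAGGAA, the purine-rich box that PU.1 binds, stood in 6 of the 8 windows (Ctsc, Ctse, Ctsh, Ctsk, Ctss and Ctsz), against 27.6% of all windows. GGGCGG, the GC box of Sp1, stood in 5 of the 8 (Ctsc, Ctsd, Ctsh, Ctsl and Ctsz), against 33.1% of all windows. These letters are a description of the windows and not of binding.

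Across the 3 groups, most cathepsin genes were highest in the bladders titled pBOO + tolterodine and lowest in those titled pBOO, with sham between. Ctss had the widest spread of the group means, Ctsk was high in the tolterodine arrays alone, and Ctsh and Ctse departed from this order. Levels below are log2 intensities relative to each array's 75th percentile, which is 0, with flagged spots kept unless stated. Levels of different probes are not compared. Since whole bladder was measured, more cells of a type and more RNA per cell cannot be told apart.

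**Figure D1:**
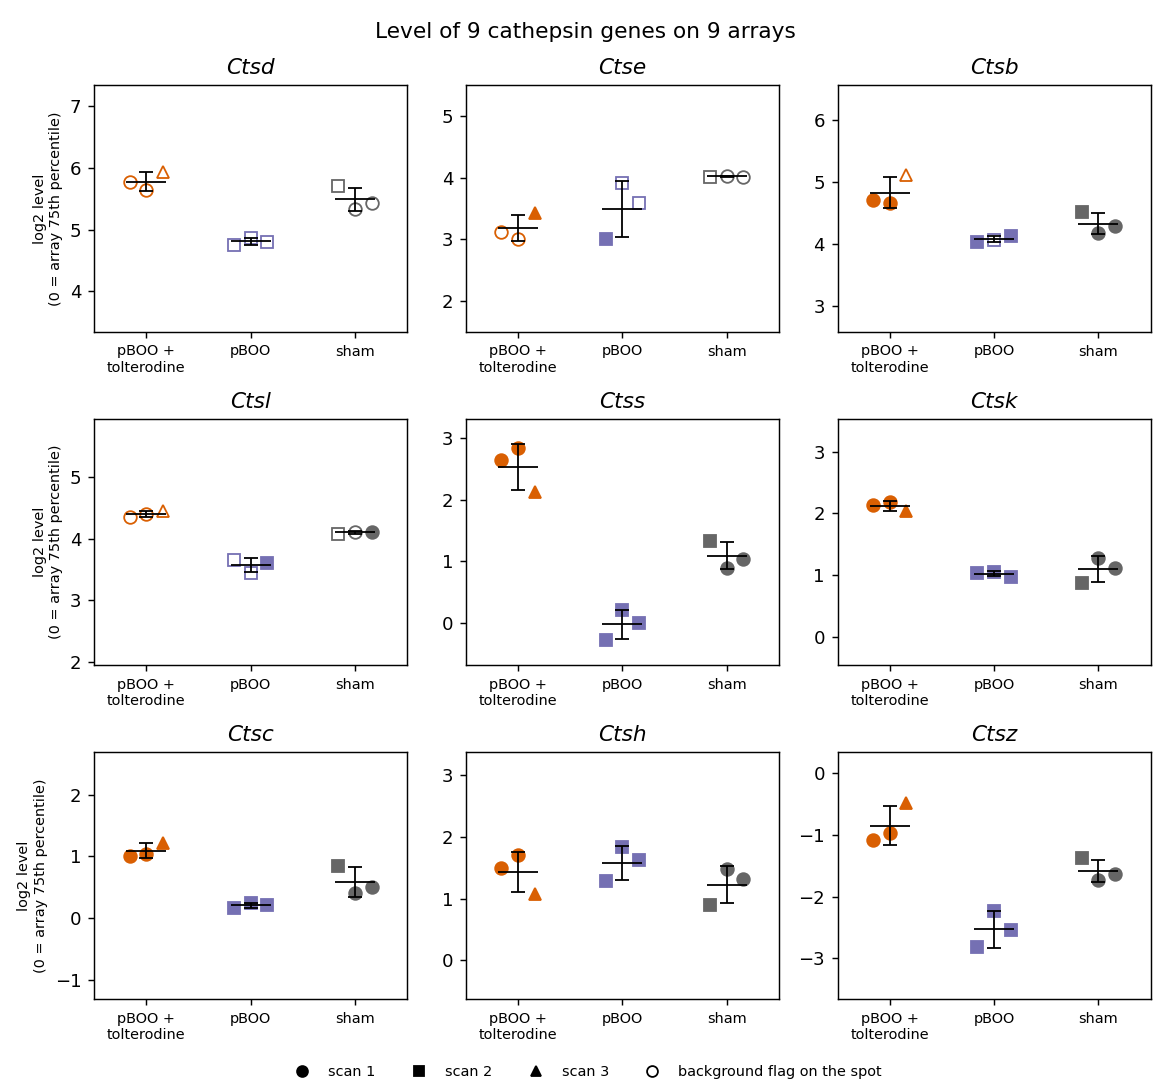
Log2 level (0 is the array's 75th percentile) of the 9 cathepsin genes on each array, by group, with the mean and SD of 3 arrays as black bars, the scan as the marker shape and hollow markers for spots with a background flag; each panel spans 4 log2 units. The 3 tolterodine arrays of Ctss sit between 2.12 and 2.83, above all sham and pBOO arrays, while the groups of Ctsh overlap.

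Among the cysteine endopeptidases, Ctss, which trims the invariant chain from MHC class II molecules and stays active at neutral pH, read 2.64, 2.83 and 2.12 on the pBOO + tolterodine arrays, -0.27, 0.21 and 0.00 on the pBOO arrays, and 1.33, 0.89 and 1.04 on the sham arrays. No pair of groups overlapped. The means were 2.53 ± 0.37, -0.02 ± 0.24 and 1.09 ± 0.22 for tolterodine, pBOO and sham (SD, n = 3 each), so each step in the order exceeded the SDs.

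Ctsk, a collagenase best known from bone-resorbing osteoclasts, read 2.14, 2.19 and 2.04 on the tolterodine arrays, 1.03, 1.05 and 0.97 on the pBOO arrays, and 0.87, 1.28 and 1.12 on the sham arrays. Its tolterodine arrays lay apart above all others, and the pBOO arrays lay inside the range of the sham arrays. Ctsl, a broad endopeptidase that also processes the invariant chain in thymic epithelium, read 4.35, 4.40 and 4.45 with tolterodine, 3.66, 3.44 and 3.6 in pBOO, and 4.08, 4.11 and 4.11 in sham. The 3 groups did not overlap, although 7 of these 9 spots carried a background flag.

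Ctsb, which acts as an endopeptidase and as a dipeptidyl carboxypeptidase, read 4.71, 4.67 and 5.12 on the tolterodine arrays, 4.03, 4.07 and 4.13 on the pBOO arrays, and 4.51, 4.18 and 4.29 on the sham arrays. The 3 groups were separate, with a narrow gap between pBOO and sham. Tolterodine array 3 and pBOO array 2 carried a background flag on its spot.

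The exopeptidases fell into distinct patterns. Ctsc, the dipeptidyl peptidase that activates granule serine proteases of leukocytes, read 1.00, 1.04 and 1.22 on the tolterodine arrays, 0.16, 0.25 and 0.21 on the pBOO arrays, and 0.85, 0.40 and 0.51 on the sham arrays. The groups kept apart, with sham array 1 nearest to the tolterodine arrays. Ctsz, a carboxypeptidase found in monocytes and macrophages, read -1.08, -0.97 and -0.49 with tolterodine, -2.82, -2.23 and -2.55 in pBOO, and -1.38, -1.73 and -1.64 in sham, again with 3 separate groups. Ctsh, an aminopeptidase known from lung surfactant processing, read 1.5, 1.7 and 1.08 with tolterodine, 1.28, 1.83 and 1.62 in pBOO, and 0.90, 1.48 and 1.32 in sham, and all its groups overlapped.

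Of the aspartic proteases, Ctsd, the main aspartic protease of lysosomes, read 5.77, 5.64 and 5.94 on the tolterodine arrays, 4.75, 4.87 and 4.8 on the pBOO arrays, and 5.70, 5.33 and 5.44 on the sham arrays. All 9 spots carried a background flag but none a flag on the spot itself. The pBOO arrays were the lowest, and sham array 1 reached into the tolterodine range. Ctse, an aspartic protease of endosomes in epithelia and immune cells, read 3.11, 3.01 and 3.42 with tolterodine, 3.00, 3.91 and 3.58 in pBOO, and 4.01, 4.03 and 4.01 in sham. Sham was thus the highest group for Ctse, and the tolterodine and pBOO arrays overlapped. Its spot carried a background flag on 7 of 9 arrays.

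The comparison of pBOO + tolterodine with pBOO asks what the drug group adds to obstruction, and here 5 of the 6 cathepsin genes tested with flagged spots removed were higher in the tolterodine arrays and 0 lower. Across all genes, 26% were called higher and 15.3% lower in this comparison (limma, Benjamini-Hochberg adjusted p under 0.05). Ctss was higher by 2.55 on the log2 scale (SE 0.21, adjusted p = 4.26e-05), which is 5.86-fold, and 1.41% of all tested genes had a larger rise. Ctsz was 3.22-fold higher (log2 fold change 1.69, SE 0.20, adjusted p = 0.000298). Ctsk was 2.15-fold higher (1.1, SE 0.12, adjusted p = 0.000218). For Ctsc the difference was 1.84-fold (0.88, SE 0.14, adjusted p = 0.00125).

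Ctsb was 1.53-fold higher (0.61, SE 0.16, adjusted p = 0.0194) from 2 unflagged arrays in each of these groups, and 1.69-fold higher with all 3 (adjusted p = 0.00386). Ctsh gave -0.15 (95% interval -0.65 to 0.35, adjusted p = 0.613), an interval that leaves room for a small change either way. With flagged spots kept, 7 of 9 members were called higher and 0 lower, against 26.6% of all genes called higher and 15.3% lower. The added calls were Ctsd, 1.97-fold (0.98, SE 0.13, adjusted p = 0.000568), and Ctsl, 1.78-fold (0.84, SE 0.10, adjusted p = 0.000303), while Ctse gave -0.32 (95% interval -0.81 to 0.18, adjusted p = 0.269). The median log2 fold change was 0.99 over the 6 members, beside 0.11 over all genes, and 0.88 over the 9, beside 0.12. Under quantile scaling Ctsb lost its call (0.37) and Ctse was called lower (-0.60). With flagged spots removed, Ctsb also lost its call without tolterodine array 1 (adjusted p = 0.0882) or 2 (0.0628) or pBOO array 1 (0.0741) or 3 (0.0667), at log2 fold changes of 0.56 to 0.66.

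No scan held arrays of both of these groups. With scan as a fixed block, which links them through the sham arrays, the log2 fold changes were 3.12 for Ctss, 1.81 for Ctsz, 1.21 for Ctsc, 0.88 for Ctsb and 0.81 for Ctsk, and with flagged spots kept 1.21 for Ctsd and 0.78 for Ctsl. That link rests on sham array 1, the only sham array in the scan of the pBOO arrays and the array that stood apart. Tolterodine array 3, alone in its scan, adds nothing to it. The block fit therefore cannot separate drug from scan. Without tolterodine array 3, the lone array of scan 3, Ctsh gave 0.02.

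**Figure D2:**
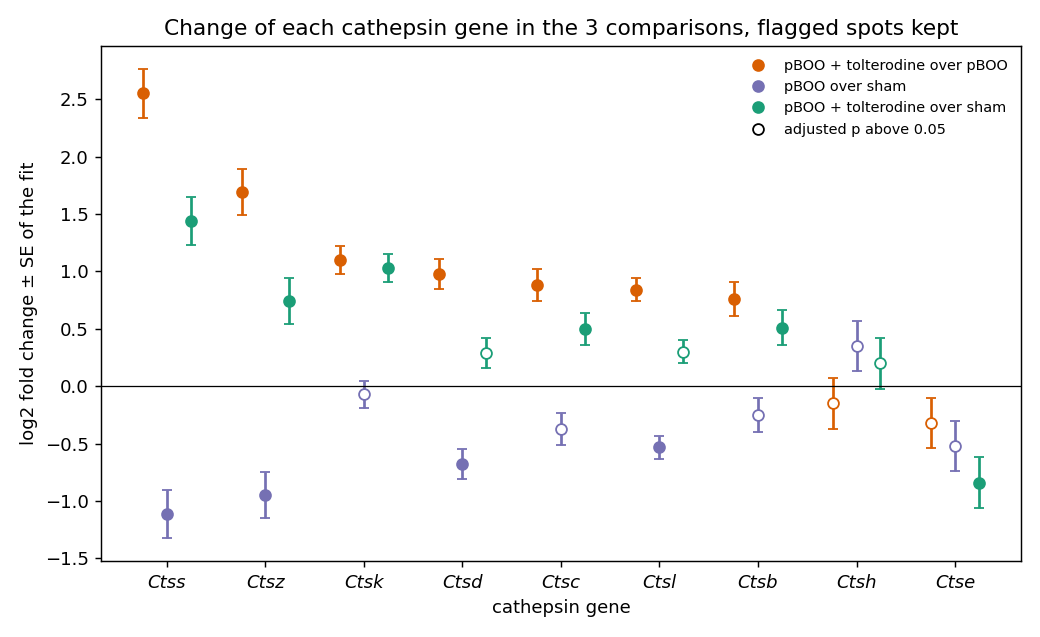
Log2 fold change of each cathepsin gene with the SE of the limma fit, flagged spots kept, for pBOO + tolterodine over pBOO, pBOO over sham and pBOO + tolterodine over sham; hollow points have an adjusted p above 0.05. Ctss shows the largest rise with tolterodine over pBOO (2.55) and the largest fall of pBOO below sham (-1.11), and Ctse alone is lower with tolterodine than in sham (-0.84).

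The comparison of pBOO with sham asks what obstruction alone did, and without a scan block the cathepsin genes called were lower in pBOO. Of 6 members tested with flagged spots removed, 2 were lower and 0 higher, against 21.7% of all genes called lower and 20.8% higher. Ctss was 2.15-fold lower in pBOO than in sham (log2 fold change -1.11, SE 0.21, adjusted p = 0.00343). Ctsz was 1.93-fold lower (-0.95, SE 0.20, adjusted p = 0.00569). Ctsc missed the threshold at -0.37 (adjusted p = 0.054), although its groups did not overlap. Ctsb gave -0.25 (adjusted p = 0.207) and Ctsh 0.35 (adjusted p = 0.237). Ctsk gave -0.07 with a 95% interval of -0.36 to 0.21 (adjusted p = 0.667).

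With flagged spots kept, 4 of 9 members were lower and 0 higher, against 22.9% of all genes called lower and 20.5% higher. Ctsd was 1.61-fold lower (-0.68, SE 0.13, adjusted p = 0.00338) and Ctsl 1.45-fold lower (-0.53, SE 0.10, adjusted p = 0.00314), while Ctse gave -0.52 (adjusted p = 0.0814). Medians were -0.31 over the 6 members and -0.52 over the 9, beside -0.04 over all genes in both tables. Quantile scaling took the calls of Ctsd (-0.13) and Ctsl (-0.11) away and turned the sign of Ctsb (0.24) and Ctsk (0.07), none of them called there.

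Within scan 2, which held the 3 pBOO arrays and sham array 1, the log2 fold changes were -1.35 for Ctss, -1.15 for Ctsz, -0.64 for Ctsc, -0.43 for Ctsb, 0.68 for Ctsh and 0.15 for Ctsk, and with flagged spots kept -0.89 for Ctsd, -0.52 for Ctse and -0.51 for Ctsl. These values, and the same ones from a fit with scan as a fixed block, rest on that 1 sham array. In the block fit, where other arrays give the spread, Ctsc (adjusted p = 0.00354) and Ctsb (adjusted p = 0.0356) were called lower and Ctsh was called higher (adjusted p = 0.0447). Without sham array 1, the array that stood apart, Ctss was at -0.99 (adjusted p = 0.00944), Ctsz at -0.85 (adjusted p = 0.0155), Ctsd at -0.58 (adjusted p = 0.00591) and Ctsl at -0.54 (adjusted p = 0.00455). Ctss, Ctsz, Ctsd and Ctsl in pBOO thus kept their calls without that array. The pBOO arrays were then all in scan 2 and the remaining sham arrays in scan 1, so obstruction and scan cannot be told apart in these values.

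The comparison of pBOO + tolterodine with sham asks whether the treated obstructed bladder differed from an unobstructed one. Of 6 members with flagged spots removed, 4 were higher and 0 lower, against 17.8% of all genes called higher and 6.59% lower. Ctss was 2.72-fold higher than in sham (log2 fold change 1.44, SE 0.21, adjusted p = 0.00242) and Ctsk 2.04-fold higher (1.03, SE 0.12, adjusted p = 0.00109). Ctsz was 1.67-fold higher (0.74, SE 0.20, adjusted p = 0.0299) and Ctsc 1.42-fold higher (0.50, SE 0.14, adjusted p = 0.0289). Ctsb gave 0.37 (adjusted p = 0.108) with its flagged spots removed and 0.51 with them kept (adjusted p = 0.0371). Ctsh gave 0.20 (adjusted p = 0.545).

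With flagged spots kept, 5 of 9 members were higher and 1 lower, against 17.5% of all genes called higher and 6.55% called lower. The lower member was Ctse, 1.79-fold below sham (-0.84, SE 0.22, adjusted p = 0.0249). Ctsd (0.29, adjusted p = 0.137) and Ctsl (0.30, adjusted p = 0.0584) were not called. Medians were 0.62 over the 6 members, beside 0.09 over all genes, and 0.50 over the 9, beside 0.08. Within scan 1, tolterodine arrays 1 and 2 over sham arrays 2 and 3, Ctss gave 1.77, Ctsk 0.96, Ctsz 0.66, Ctsc 0.57 and Ctsb 0.46, and with flagged spots kept Ctse gave -0.96. With flagged spots removed, the members called higher numbered 5 in place of 4 without sham array 1. Without sham array 2 or 3, tolterodine array 2 or 3, or pBOO array 3, they numbered 2, Ctsk and Ctss. With flagged spots kept, Ctse lost its call without tolterodine array 1 (adjusted p = 0.0777) or 2 (0.0867) or sham array 2 (0.0682) or 3 (0.073).

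The 3 comparisons share arrays, so their values for a gene are not independent. Groups did not overlap for 5, 4 and 5 of the 6 members in tolterodine against pBOO, pBOO against sham and tolterodine against sham, where 58.7%, 55.7% and 43.1% of all genes did not overlap.

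Over the 9 arrays, Ctsb, Ctsc, Ctsd, Ctsl, Ctss and Ctsz followed one another with a Pearson r of 0.85 to 0.97 (flagged spots kept), Ctsk followed these 6 with 0.67 to 0.88, and Ctse (-0.62 to -0.05) and Ctsh (-0.47 to 0.14) did not. These correlations describe 9 arrays that share 3 groups and 3 scans. By the same measure over the 9 arrays, the genes most like Ctss were Cd300a (r = 0.995) and Fcgr2al1 (0.993), those most like Ctsk were Fxyd2 and Cplx3 (both 0.990), and those most like Ctsc were Phlda1 and Slc35a3 (both 0.994). For Ctsz they were Wnt4 (0.992) and Pak1 (0.991), and for Ctsh Etfbkmt (0.963) and Hbp1 (0.957). The other 4 members lacked an unflagged value on some array.

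Genes that work with the cathepsins are described by list, each count to be read beside the share of all genes called: 26% higher and 15.3% lower in tolterodine against pBOO, and 20.8% higher and 21.7% lower in pBOO against sham. Of 9 tested genes of MHC class II, its invariant chain and their activator, 8 were higher in tolterodine than in pBOO and 1 lower, with a median log2 fold change of 1.59. RT1-Bb, a class II beta chain, was at 2.97 (adjusted p = 2.92e-05), RT1-Da, an alpha chain, at 2.10 (adjusted p = 3.58e-05), and Ciita, the class II transactivator, at 1.88 (adjusted p = 3.34e-05). The lower gene, singled out after its value was seen, was RT1-Ba at -4.35 (adjusted p = 0.00876), the partner alpha chain of RT1-Bb. Its probe was well above background on 8 of 9 arrays, and these genes belong to a multigene family whose members are alike in sequence, so this value is uncertain. In pBOO against sham 4 of the 9 were lower and 0 higher, against 21.7% of all genes lower, among them RT1-Bb at -1.32 (adjusted p = 0.00209).

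Of 9 tested cathepsin inhibitors and related genes, 6 were higher in tolterodine than in pBOO and 0 lower (median 0.81), against 26% of all genes higher. In pBOO against sham, 4 were lower and 0 higher (median -0.26), against 21.7% of all genes lower. Cst6, a secreted cystatin, was at 2.18 in tolterodine over pBOO (adjusted p = 6.51e-05) and at -2.24 in pBOO over sham (adjusted p = 7.23e-05). Serpina3n, a serine protease inhibitor in mice and rats, was at 3.32 and -1.99 in these comparisons (adjusted p = 0.000169 and 0.00256), and Cstb, a cytosolic stefin, at 0.81 and -0.68 (adjusted p = 0.00134 and 0.00165). Csta, the other cytosolic stefin, is among the genes counted in both comparisons, but its probe was well above background on 4 of 9 arrays and no fold is given.

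Among 7 tested genes for other cathepsins and legumain, 3 were higher in tolterodine than in pBOO and 1 lower, beside 26% and 15.3% of all genes. Whether this short list differs from all genes was not tested. Ctsw, a cathepsin of cytotoxic lymphocytes, was at 0.97 (adjusted p = 0.00167), Lgmn, the asparaginyl endopeptidase that processes cathepsin precursors, at 0.59 (adjusted p = 0.016), and Ctsa, a serine carboxypeptidase, at 0.46 (adjusted p = 0.0123). Ctsf, a cysteine cathepsin, went the other way: it was at -0.52 in tolterodine over pBOO (adjusted p = 0.0114) and at 0.96 in pBOO over sham (adjusted p = 0.000547). Of 6 granule proteases that Ctsc can activate, 3 were higher and 0 lower in tolterodine over pBOO, with the mast cell tryptase Tpsab1 at 1.34 (adjusted p = 8.36e-05) and the neutrophil elastase Elane at 1.09 (adjusted p = 0.0288). With flagged spots kept 1 of 7 was lower, Mcpt1, a mast cell chymase singled out after its value was seen, at -4.09 (adjusted p = 0.0185). Markers of mast cells did not follow Tpsab1, since 0 of 5 were higher and 2 lower in this comparison (median -0.87), Kit and Fcer1a, whose probes were well above background on 4 and 7 of 9 arrays.

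The other lists hold further machinery of the lysosome. Of 31 tested hydrolases and activators, 13 were higher in tolterodine than in pBOO and 0 lower (median 0.25), beside 26% called higher over all genes. Acp5, the tartrate-resistant acid phosphatase, was at 1.78 (adjusted p = 2.31e-05), Ifi30, the lysosomal thiol reductase, at 1.55 (adjusted p = 2.19e-05), Lipa, the acid lipase, at 0.90 (adjusted p = 0.00286), and Gm2a, the ganglioside activator, at 0.89 (adjusted p = 0.00262). In pBOO against sham 5 of the 31 were lower and 3 higher, smaller shares than the 21.7% and 20.8% over all genes, with Acp5 at -1.34 (adjusted p = 0.000122) and Tpp1, a tripeptidyl peptidase, at 0.87 (adjusted p = 0.00215).

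Of 14 genes of the lysosomal membrane, 5 were higher in tolterodine over pBOO and 0 lower (median 0.12), against 26% and 15.3% of all genes. Whether this list differs from all genes was not tested. Laptm5, a protein of blood cell lysosomes, led it at 1.72 (adjusted p = 1.59e-05). Of 14 subunits of the proton pump, 2 were higher and 0 lower (median 0.04), a smaller share than over all genes. They were Tcirg1, a pump subunit prominent in osteoclasts, at 1.06 (adjusted p = 0.00195), and Atp6v0b at 0.62 (adjusted p = 0.00271). Of 9 genes of sorting to the lysosome, 2 were higher and 1 lower (median -0.09), near the shares over all genes, the lower gene being the receptor sortilin, Sort1, at -0.73 (adjusted p = 0.00212). The regulators Tfeb (0.19, adjusted p = 0.371) and Mitf (0.38, adjusted p = 0.0571) did not pass the test in this comparison, and Mitf was higher in tolterodine than in sham (0.49, adjusted p = 0.0345).

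**Figure D3:**
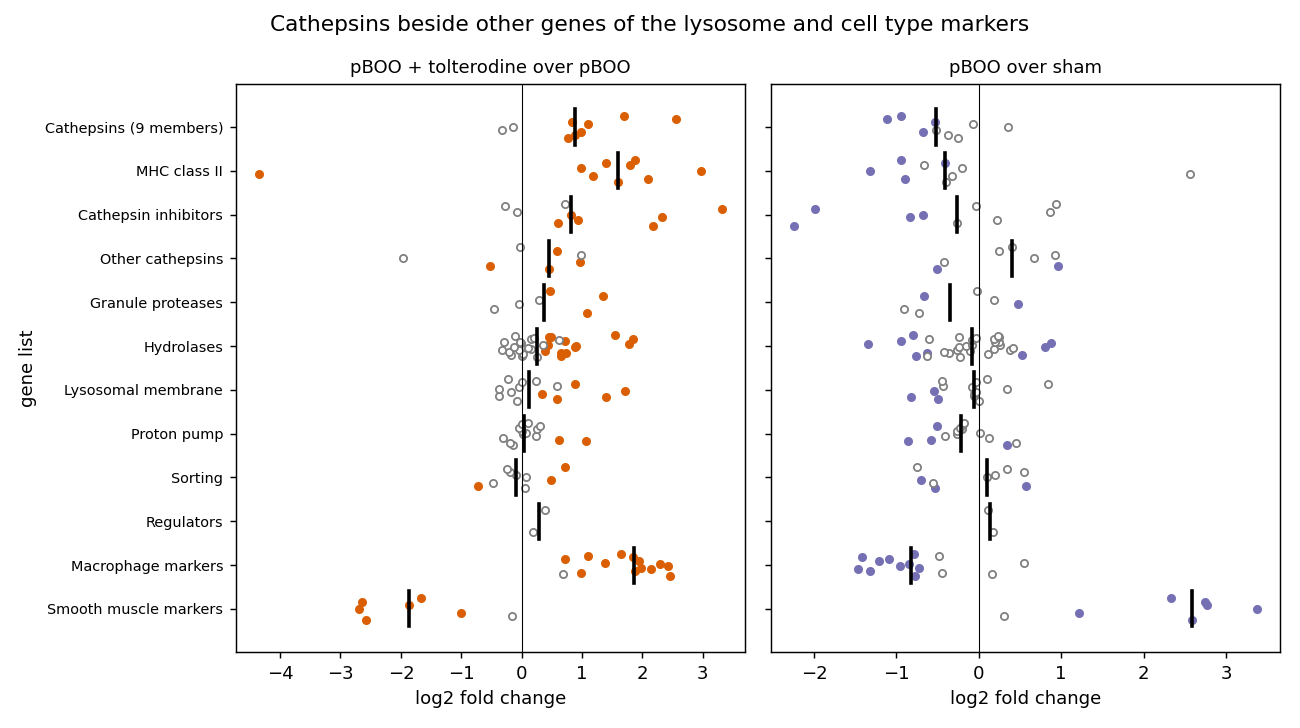
Log2 fold change of every tested gene, by list, in pBOO + tolterodine over pBOO (left) and pBOO over sham (right); filled points have an adjusted p under 0.05 and black bars are medians. On the left panel the medians of cathepsins (0.88, flagged spots kept), MHC class II genes (1.59) and macrophage markers (1.87) lie right of 0, with RT1-Ba (-4.35), Ctse (-0.32) and Ctsh (-0.15) left of it, and the medians of proton pump (0.04) and sorting genes (-0.09) lie near 0.

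Cell type markers also differed between the groups, but not all in the order of most cathepsins. The mean log2 level of 14 macrophage markers ran from 0.55 to 0.62 on the tolterodine arrays, -1.15 to -1.06 on the pBOO arrays and -0.53 to -0.14 on the sham arrays. Of these 14 markers, 13 were higher in tolterodine than in pBOO (median 1.87), 10 were lower in pBOO than in sham (median -0.82), and 10 were higher in tolterodine than in sham (median 0.78). Over all genes these shares were 26%, 21.7% and 17.8%. Of the other 2 markers on the list, Marco was too dim and Ms4a7 had no named probe. The mean of the macrophage markers thus had the group order of Ctss, Ctsz, Ctsc, Ctsd, Ctsl and Ctsb. Not every marker did: Mrc1 (0.55) and Csf1r (0.16), singled out after their values were seen, did not fall in pBOO against sham, without a call. That order was not particular to macrophage markers, since the means of dendritic and neutrophil markers had it too. The mean of 3 dendritic markers ran from -1.94 to -1.64, -3.12 to -3 and -2.61 to -2.15 on tolterodine, pBOO and sham arrays.

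The mean of 5 neutrophil markers ran from -2.11 to -1.85, -5.36 to -4.91 and -3.03 to -2.24 on tolterodine, pBOO and sham arrays. Of these, Cxcr2 was well above background on 4 and Csf3r on 6 of 9 arrays, so some of these means include a probe at background. The mean of 10 smooth muscle markers ran from 4.09 to 4.54 on tolterodine arrays, 5.26 to 5.52 on pBOO arrays and 3.85 to 4.25 on sham arrays, highest in pBOO. The mean of 13 urothelial markers, with flagged spots kept, ran from 3.99 to 4.29 on tolterodine arrays, 3.29 to 3.91 on pBOO arrays and 4.53 to 4.64 on sham arrays. Sham was also the highest group for Ctse, but the other groups lay in a different order from that mean. The urothelial mean was lowest in pBOO, while the Ctse mean was 3.18 with tolterodine and 3.49 in pBOO, with overlapping arrays. Single urothelial markers did not move together. In tolterodine over pBOO, 5 of the 13 were called higher and 3 lower, against 26.6% and 15.3% of all genes. The lower ones were Upk1a (-0.56), Upk1b (-0.49) and Upk2 (-1), the direction of Ctse (-0.32, not called). Fibroblast markers, 7 in all, lay at 2.39 to 2.47, 2.09 to 2.17 and 1.70 to 1.83 on tolterodine, pBOO and sham arrays. Of 6 osteoclast markers 0 were tested, since Calcr and Mmp9 were too dim and 4 had no named probe. The part of any of these markers in the cathepsin differences was not tested.

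**Figure D4:**
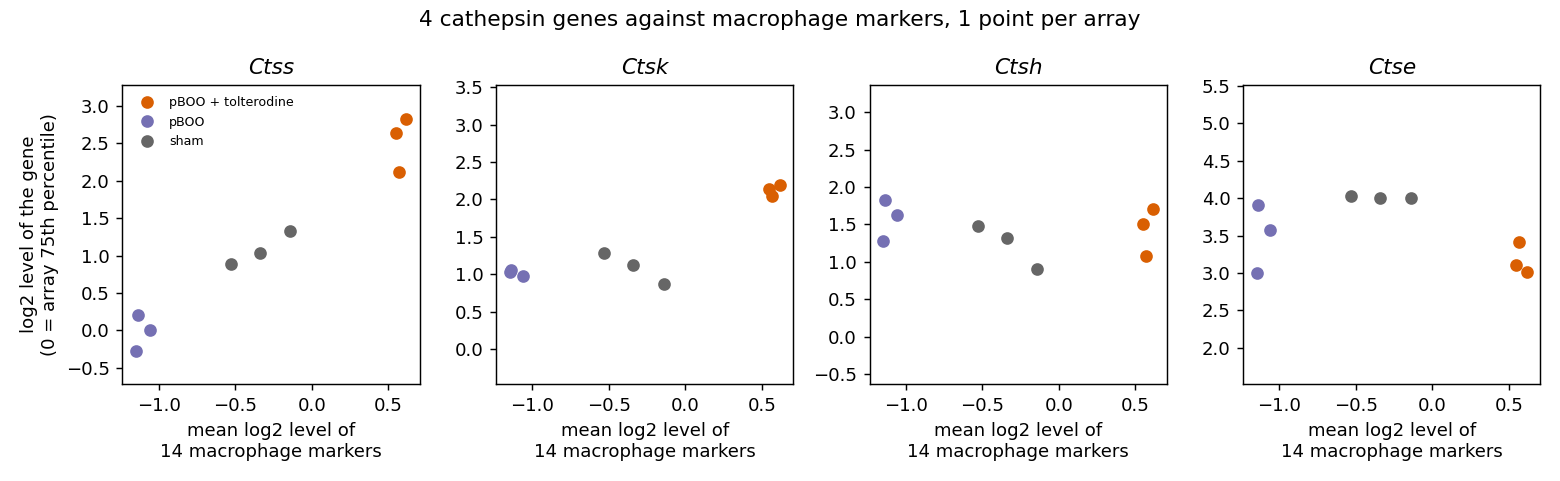
Log2 level of Ctss, Ctsk, Ctsh and Ctse (vertical axis, 4 log2 units in each panel) against the mean log2 level of 14 macrophage markers (horizontal axis), 1 point per array, coloured by group. The tolterodine arrays (0.55 to 0.62 in the marker mean) have the highest Ctss and Ctsk. The pBOO and sham arrays differ in the marker mean but overlap in Ctsk, and the groups of Ctsh overlap.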

How the data were processed

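The authors deposited 1 file of spot intensities per array. Per the file headers, these came from Feature Extraction 11.0.1.1 (the submitters' processing notes name 9.1), and background subtraction and spatial detrending were already applied to the processed intensities, without any scaling between arrays. The deposited foreground and background medians are raw intensities, and the deposited quality flags (other) are 0 or 1.

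The log2 processed signal of 42877 non-control spots was set relative to each array's 75th percentile, 523 to 1441 intensity units. Spots with a non-uniformity or outlier flag on the spot or its background were removed, or kept in a second table. A probe had to be well above background on 3 or more arrays, which 22146 of 30367 were. Accessions gave 18005 probes a symbol of the RefSeq assembly GRCr8, the brightest probe stood for a gene, and at least 2 unflagged arrays per group were required, leaving 11049 genes (11638 with flagged spots kept). The 589 genes lost to flags include Ctsd, Ctse and Ctsl.

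A single limma fit (R 4.3.3, limma 3.58.1) had 1 coefficient per group, two-sided moderated tests and Benjamini-Hochberg adjustment over all genes, threshold 0.05. The procedure was tested on simulated data. The number of arrays limits the precision, and the median SE of a log2 fold change was 0.171. All 9 members are named. From each companion list up to 4 tested genes with the smallest adjusted p per comparison may be named, and the 2 genes of highest r for each member with a value on all arrays. Members and lists were chosen with earlier results of these data known. Alternatives changed scaling, background correction, flags, the dim-probe filter, the probe rule, scan and replicate blocks, and left out each array.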

Additional observations from a re-analysis of the deposited data

How the results depend on the processing

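In tolterodine against pBOO, the rise of Ctsc, Ctsk, Ctss and Ctsz kept its call under 19 of 19 alternatives, and that of Ctsd and Ctsl, with flagged spots kept, under 17 of 17. The fall of Ctss and Ctsz in pBOO against sham, and the rise of Ctsk and Ctss in tolterodine against sham, kept theirs under 20 of 20. Flag, dim-probe, probe-rule and replicate-block settings, and leaving out an array not compared, could not change these folds. The fixed scan block repeats scan 2 alone, from sham array 1, in pBOO against sham, and scan 1 in tolterodine against sham. These add no separate support, and without sham array 1 the pBOO and sham arrays share no scan. In tolterodine against sham, Ctsc lost its call under 9 of 20 and Ctsz under 8 of 20. Signs turned, without a call, for Ctsb in pBOO against sham under quantile scaling (0.24), for Ctsk there under quantile scaling (0.07), scan as a fixed block (0.15) or random block (0.08), within scan 2 (0.15) and without sham array 2 (range -0.18 to 0.02 over the arrays left out), and for Ctsh in tolterodine against pBOO without tolterodine array 3 (range -0.30 to 0.02). Members higher in tolterodine than in sham numbered 2 in place of 4 under median scaling and normexp background, and, with flagged spots kept, 2 and 3 in place of 5. Members lower in pBOO than in sham numbered 4 in place of 2 with flagged spots kept, with only feature flags removed (an alternative chosen after seeing the data), and with scan as a fixed block, and 2 in place of 4 under quantile scaling with flagged spots kept. Ctsh, in place of 0 members, was called higher in pBOO than in sham with scan as a fixed or random block (1), with flagged spots removed or kept. Ctse was the 1 member called lower in tolterodine than in sham with flagged spots kept or only feature flags removed, and the 1 called lower than in pBOO under quantile scaling. Over all genes, normexp background called 3000, 3026 and 961 genes in tolterodine against pBOO, pBOO against sham and tolterodine against sham, in place of 4564, 4693 and 2693. In tolterodine against sham, 4486 were called with scan as a fixed block, 4279 with a random block and 5840 within scan 1, and in pBOO against sham 2859 within scan 2. The cause of these shifts was not tested.

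Leaving out 1 array gave 4 to 5 members higher in tolterodine than in pBOO, 2 to 3 lower in pBOO than in sham and 2 to 5 higher in tolterodine than in sham. With flagged spots kept these were 7 to 7, 4 to 5 and 2 to 6, with 0 to 1 lower in tolterodine than in pBOO and 0 to 1 lower than in sham. Over all genes 3396 to 5336, 3406 to 5141 and 1412 to 3785 were called. In tolterodine against sham, with flagged spots removed, the count of members was 2 without tolterodine array 2 or 3, pBOO array 3, or sham array 2 or 3.

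Replicate numbers did not pair the arrays: deviations of same-numbered arrays correlated at -0.08 to 0.178, those of others at -0.181 to 0.162, and 4 of 9 arrays correlated best with their own number. With the number as a replicate block, members higher in tolterodine than in sham numbered 2, with flagged spots removed or kept, and 2332 genes were called there in place of 2693. No scan held both tolterodine and pBOO arrays, so that comparison was not run within a scan. A fit per probe added nothing with 1 probe per member.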

Other observations

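Next in likeness to Ctsk over the 9 arrays, below the genes named by the rule and chosen here after their values were seen, were Trem2 (r = 0.989), a receptor of lipid-handling macrophages, and Arg1 (0.988), arginase. Further genes of high likeness were Hpse (0.992), heparanase, for Ctsc, and Alox5 (0.991), the lipoxygenase of leukotriene synthesis, for Ctss. These correlations describe 9 arrays in 3 groups and carry no test.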
